A study of Mus musculus with 4 samples.

Results

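The genes described here encode molecular chaperones and their partners, the proteins that help other proteins fold. A gene was taken if its symbol in the array annotation starts with Dnaja, Dnajb, Dnajc, Cct followed by a digit, Hspa, Hspb, Hspd or Hspe. Hspa1a, Hspa1b, Hspa8 and Dnajb1 were left out, and a gene had to exceed a signal floor on at least 1 of 4 arrays. Of 18193 genes with a probe set of their own, 74 symbols matched and 56 of those passed the floor, against 9865 passing genes in all. Where a gene has several probe sets, the one of highest mean log2 signal stands for it.

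The study isolated bone marrow neutrophils, short-lived phagocytes of the innate immune system, from C57BL/6 mice aged 8 weeks that carried the microRNA miR-125a (miR-125a+/+, wild type) or lacked it (miR-125a-/-, knockout). Cells were enriched with magnetic beads and were harvested either unstimulated or after 3 h with lipopolysaccharide (LPS), a component of the Gram-negative bacterial envelope. For every group, RNA from 3 experiments was combined before hybridisation to 1 Affymetrix array. Each group therefore holds 1 array, so no difference below has a replicate check and no test could be run. The labels do not say how the miR-125a allele was made or whether the unstimulated cells also spent 3 h in culture.

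Chaperones of the Hsp70 family (Hspa genes) bind short hydrophobic stretches of unfolded proteins in a cycle driven by ATP. J proteins (Dnaj genes) bring them their clients and start ATP hydrolysis, and nucleotide exchange factors end the cycle. Chaperonins fold proteins inside a closed chamber, the CCT complex in the cytosol and the Hspd1 ring with its Hspe1 lid in mitochondria. The endoplasmic reticulum (ER), where secreted and granule proteins fold, has an Hsp70 of its own, Hspa5, with a set of dedicated J proteins.

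Values are log2 signals made with MAS5, the Affymetrix summary method, and the floor was a log2 signal of 6.80, the 60th percentile of all values. A gene was called higher or lower between 2 arrays if its signal differed at least 2-fold, a log2 difference of 1 or more, and values under the floor were set to it first. Signals of different probe sets are not on a common scale, so levels are compared between arrays and not between genes.

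Promoter sequences were examined for the 47 of 56 genes that have an entry in the RefSeq table of GRCm38.p6, each a window of 300 bases, 250 before and 50 after the annotated start. They are shown for the genes whose window holds a response element of the stress pathways that are known to control chaperone genes. A heat shock element was searched for on both strands as GAA, TTC and GAA in a row with 2 free bases between each. It lies in 0.603% of 32851 windows and in those of Hspe1, Hspd1 and Dnajb6. The Hspe1 window (chr1:55087898-55088197, plus strand) and a window of Hspd1 on the minus strand share 285 bases, because the starts of these divergent genes lie 216 bases apart, so the same bases carry the element for both. A second annotated start of Hspd1 has a window without it. The capitals mark the matches, which overlap in Hspe1. The Dnajb6 window is chr5:29735648-29735947, plus strand.
Hspe1: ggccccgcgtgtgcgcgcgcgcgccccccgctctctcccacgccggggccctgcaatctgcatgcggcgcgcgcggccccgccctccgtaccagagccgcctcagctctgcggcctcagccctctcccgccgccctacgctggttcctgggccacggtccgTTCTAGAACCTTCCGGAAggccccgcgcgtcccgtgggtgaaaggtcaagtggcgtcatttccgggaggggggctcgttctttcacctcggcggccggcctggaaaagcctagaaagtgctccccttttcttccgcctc
Dnajb6: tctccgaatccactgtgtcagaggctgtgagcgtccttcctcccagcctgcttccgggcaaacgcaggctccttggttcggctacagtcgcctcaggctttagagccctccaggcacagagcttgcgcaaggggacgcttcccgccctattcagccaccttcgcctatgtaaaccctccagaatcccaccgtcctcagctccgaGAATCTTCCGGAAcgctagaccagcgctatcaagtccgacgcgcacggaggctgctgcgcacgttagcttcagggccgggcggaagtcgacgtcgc

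The ER stress response element was searched for on both strands as CCAAT and CCACG with 9 free bases between them, and lies in 0.119% of windows. A related form, searched for as ATTGG and CCACG with 1 free base between them, lies in 0.0365%. Among the chaperone genes the first was found in Hspa5 (chr2:34771840-34772139, plus strand) and Dnajc3 (chr14:118937682-118937981, plus strand), 65 and 105 bases before their starts. The second form was found in Dnajb11 (chr16:22857595-22857894, plus strand), 7 bases after its start. All 3 genes act in the ER, and the capitals again mark the matches.
Hspa5: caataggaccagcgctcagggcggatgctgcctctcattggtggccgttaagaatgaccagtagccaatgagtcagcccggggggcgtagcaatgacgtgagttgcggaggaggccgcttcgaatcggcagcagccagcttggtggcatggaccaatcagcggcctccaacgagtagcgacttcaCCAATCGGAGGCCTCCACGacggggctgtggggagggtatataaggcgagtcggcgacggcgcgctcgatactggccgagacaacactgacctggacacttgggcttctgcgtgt
Dnajc3: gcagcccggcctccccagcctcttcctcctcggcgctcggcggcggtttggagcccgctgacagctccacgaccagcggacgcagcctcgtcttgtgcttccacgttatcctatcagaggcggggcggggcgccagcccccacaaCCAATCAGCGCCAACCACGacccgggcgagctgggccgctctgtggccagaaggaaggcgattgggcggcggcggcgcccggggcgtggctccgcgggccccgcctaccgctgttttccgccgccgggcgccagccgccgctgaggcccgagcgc
Dnajb11: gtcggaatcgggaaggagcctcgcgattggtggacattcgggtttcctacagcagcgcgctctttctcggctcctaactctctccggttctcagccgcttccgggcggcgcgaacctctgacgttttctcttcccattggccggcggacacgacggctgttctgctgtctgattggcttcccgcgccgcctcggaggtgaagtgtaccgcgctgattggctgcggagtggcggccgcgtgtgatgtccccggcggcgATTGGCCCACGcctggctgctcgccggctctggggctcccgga
A match is a stretch of letters and was not examined for binding here.

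Of the 56 genes, 50 exceeded the floor on all 4 arrays and 6 on some of them, and the other 18 matching symbols stayed at or under it throughout. Just inside the floor stood Hspa12a, with a highest value of 6.88, and Dnajc28, with 6.90, and just outside stood Dnajb8, with 6.72, and Dnajc27, with 6.63. The small heat shock proteins, which hold unfolded proteins without using ATP, were nearly all outside. Hspb2, Hspb3, Hspb7, Hspb8 and Hspb9 did not reach the floor, Hspb1 passed it on the LPS knockout array alone (7.14) and Hspb6 had a highest value of 6.96. The other Hspb symbols that passed are not small heat shock proteins of that kind. Hspb11 is a subunit of the transport machinery of cilia, Hspbap1 a binding partner of Hspb1, and Hspbp1 a nucleotide exchange factor. Also under the floor were Dnajb3, Dnajb7 and Dnajb13, Cct6b, and Hspa1l, an Hsp70 of the testis.

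The neutrophil label was checked against 11 marker genes, of which 9 had a probe set and all of those exceeded the floor on all 4 arrays, among them S100a8 and Ltf. Markers of other cells were also present. Of 7 B cell and plasma cell markers, 6 had a probe set and 3 passed the floor, with Jchain of plasma cells high. In the eosinophil, basophil and mast cell list the summed signal was 4199 and 3526 on the wild-type arrays against 1887 and 1540 on the knockout arrays, unstimulated and with LPS. The monocyte and macrophage list had 22457 and 22477 unstimulated against 38923 and 36957 with LPS, in wild-type and knockout order. Its 5 measured markers did not move together. In each genotype 3 were at least 2-fold higher after LPS, and 2, Ccr2 and F13a1, were at least 2-fold lower. The part of these other cells in the results was not tested. With bulk RNA, fewer cells of a type and less RNA per cell cannot be told apart. miR-125a itself was not measured, so the genotype labels were not checked here.

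The first comparison asks which chaperone genes differ after LPS. Most did not reach 2-fold in either genotype. Those that did were more often lower than higher, as over all genes. They were mainly J proteins, which also make up 33 of 54 measured chaperone genes in wild-type and 34 of 55 in knockout cells. In wild-type cells 2 of 54 measured genes (3.70%) were at least 2-fold higher, against 7.29% of all 9507 measured genes, and 7 (13%) were lower, against 9.69%. In knockout cells 2 of 55 (3.64%) were higher, against 6.62% of 9578, and 6 (10.9%) were lower, against 7.99%. These shares lie near those of all genes. The median log2 difference of the chaperone genes was -0.12 in wild-type cells and -0.18 in knockout cells, against -0.03 and -0.05 over all genes. With the arrays scaled to a common median the wild-type value was 0.09, on the other side of 0, while the median of all genes moved by 0.23, so the sign of the small shared shift depends on the scaling. The LPS differences of the genotypes, which share no array, were correlated across the 53 chaperone genes that both measured (Pearson's r 0.890, Spearman's rho 0.777), as they were across 9220 genes (0.892 and 0.832). These are correlations across genes, which are not independent replicates. Of the 53 chaperone genes 1 was called higher in both genotypes and 5 were called lower in both, against 514 and 543 of the 9220.

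**Figure D1:**
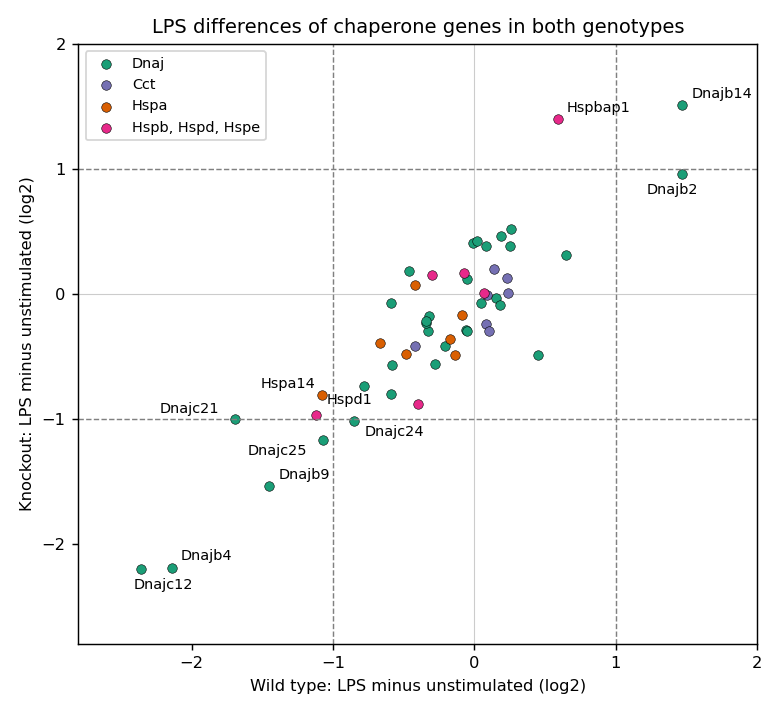
LPS minus unstimulated log2 difference of 53 chaperone genes in wild-type cells (horizontal axis) and knockout cells (vertical axis), 1 point per gene, coloured by family, with dashed lines at 2-fold. Most points lie inside the dashed square, Dnajc12 and Dnajb4 stand alone at the low end near -2.36 and -2.14, and Dnajb14 at the high end with 1.47 and 1.51.

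**Figure D2:**
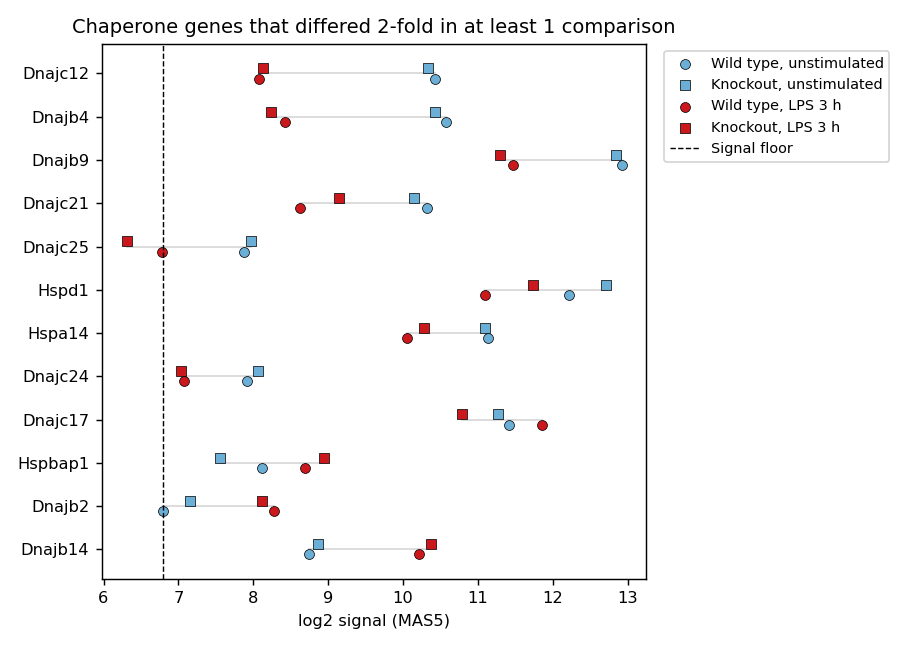
Log2 signal on each of the 4 arrays for the 12 chaperone genes called in at least 1 comparison, ordered by their mean LPS difference, with the floor as a dashed line and circles for wild type, squares for knockout. For Dnajc12, Dnajb4 and Dnajb9 both LPS arrays lie well to the left of both unstimulated arrays, and for Dnajb14 they lie to the right.

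Among the J proteins of the cytosol and nucleus the widest LPS differences were those of Dnajc12 and Dnajb4. Dnajc12, a cofactor in the folding of aromatic amino acid hydroxylases, had log2 signals of 10.43 in unstimulated wild-type and 10.33 in unstimulated knockout cells, and of 8.07 and 8.13 with LPS. It was 5.13-fold lower after LPS in wild-type and 4.60-fold lower in knockout cells. Dnajb4, a close relative of the heat-inducible Dnajb1, had 10.57 and 10.43 unstimulated and 8.43 and 8.24 with LPS, in the same order, and was 4.41-fold and 4.56-fold lower. For both genes the arrays split by LPS and the genotypes lay close together. A second probe set of Dnajb4 ran the same way, from 9.09 and 9.17 to values under the floor, with bounds of -2.30 and -2.37 on the log2 scale. Dnajc12 had a single probe set.

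Dnajc21, which takes part in making the large ribosomal subunit, had 10.32 and 10.15 unstimulated against 8.63 and 9.15 with LPS. It was 3.22-fold lower in wild-type cells and at the 2-fold line in knockout cells (2.0-fold lower). Its second measured probe set had a difference of -0.87 in both genotypes, short of 2-fold, and the knockout call was lost with quantile normalization (-0.92) and median scaling (-0.90). Dnajc24, a cofactor in the synthesis of diphthamide, a modified residue of elongation factor 2, had 7.92 and 8.06 unstimulated and 7.07 and 7.04 with LPS. Its LPS difference was -0.85 in wild-type and -1.02 in knockout cells, which lie on either side of the line but close together, and its second probe set had -0.33 in knockout cells.

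Dnajb2 was higher after LPS. This J protein with ubiquitin-binding motifs, best known from neurons, had 6.80 in wild-type and 7.16 in knockout cells unstimulated, and 8.27 and 8.12 with LPS. It was 2.77-fold higher in wild-type and 1.94-fold higher in knockout cells, the first of these from a signal at the floor. With scaling on the poly-A spike-in controls the wild-type difference of Dnajb2 was 0.92. Dnaja1 and Dnaja2, the general J proteins of the cytosol, had LPS differences of -0.59 and -0.33 in wild-type cells and of -0.80 and -0.30 in knockout cells. Dnajc2, the ribosome-bound J protein, had -0.58 and -0.57. The J proteins not placed in the ER or mitochondria here form a remainder, which may hold some of either place. Of the 19 measured in wild-type cells, 1 was called higher and 3 lower, against 7.29% and 9.69% of all genes. Of the 19 differences 15 were below 0, where 52.2% of all genes were. With median scaling 9 of 20 were above 0.

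The ER genes split. Dnajb9, a J protein that works with Hspa5 and restrains the stress sensor Ern1, had 12.92 and 12.85 unstimulated and 11.47 and 11.30 with LPS. It was 2.73-fold lower in wild-type and 2.91-fold lower in knockout cells, from a single probe set. Dnajb14, which sits in the ER membrane with its J domain in the cytosol, had 8.75 and 8.87 unstimulated and 10.22 and 10.37 with LPS, and was 2.78-fold and 2.85-fold higher. Both LPS arrays thus lay below both unstimulated arrays for Dnajb9 and above them for Dnajb14. The second probe set of Dnajb14 had differences of 0.73 and 1.30, and poly-A scaling put its brighter probe set at 0.93 and 0.87. Its close relative Dnajb12 had differences of -0.01 and 0.41, and of 0.50 and 0.25 on a second probe set.

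Dnajc25, a membrane J protein, had 7.87 and 7.97 unstimulated and lay under the floor with LPS in both genotypes (6.78 and 6.31), at least 2.10-fold and at least 2.25-fold lower. The wild-type bound of Dnajc25 was -0.84 with median scaling and -0.71 with quantile normalization. Dnajc3, an inhibitor of eIF2 alpha kinases that also works inside the ER, had 11.65 and 11.99 unstimulated and 10.86 and 11.26 with LPS, differences of -0.78 and -0.74. These fall short of 2-fold, but all 5 of its measured probe sets were lower after LPS in both genotypes, and one of nearly the same signal had -1.99 in wild-type and -1.39 in knockout cells. Hspa5 itself had 14.21 and 14.76 unstimulated and 14.04 and 14.40 with LPS, differences of -0.17 and -0.36. Dnajb11, a J protein that binds unfolded chains with Hspa5, had -0.28 and -0.56. Of 12 measured genes placed in the ER, 1 was called higher and 2 lower in each genotype. Of all genes 7.29% and 9.69% were in wild-type and 6.62% and 7.99% in knockout cells. The ER median was -0.05 in wild-type and -0.10 in knockout cells, and the first turned to 0.07 with quantile normalization and 0.19 with median scaling. The Hspa5, Dnajc3 and Dnajb11 promoters shown above belong to genes with negative differences in both genotypes, of which none was called on the brightest probe set. In wild-type cells Hspa5 had 0.08 with median scaling, so its sign depends on the scaling, and Dnajc3 had -1.32 in the mean over its probe sets.

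Genes around this pathway were counted from lists of ER folding enzymes and of the unfolded protein response, the signalling that adjusts folding capacity. None of 10 measured ER folding genes was called in either genotype (median -0.14 and -0.39), and the wild-type median was 0.11 with median scaling. In the unfolded protein response list 2 of 10 were higher in wild-type cells, Trib3 at 2.27, a pseudokinase induced by amino acid stress, and Herpud1 at 1.32, a part of ER-associated degradation. In knockout cells Trib3 was higher at 1.89 and Eif2ak3, an ER stress kinase, was lower at -1.03. Xbp1, the transcription factor that Ern1 activates, had 0.13 and -0.02.

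The Hsp70 family outside the ER and mitochondria was taken without Hspa1a, Hspa1b and Hspa8, as the rule does. On the brightest probe sets all measured differences after LPS were below 0, 5 of 5 in wild-type and 4 of 4 in knockout cells. Of all genes 52.2% and 53.6% were. The wild-type value of Hspa12a was a bound of -0.09. Its sign was fixed in advance, because that gene exceeded the floor on the unstimulated wild-type array alone. The Hsp70 genes left out included positive differences, which are given further on. With median scaling 1 of 5 lay above 0 in wild-type cells. Hspa14, a ribosome-associated Hsp70, had 11.13 and 11.09 unstimulated and 10.05 and 10.28 with LPS. It was 2.12-fold lower in wild-type (-0.84 on the log2 scale with median scaling) and 1.75-fold lower in knockout cells. Hspa4, which exchanges nucleotide on other Hsp70s, had -0.48 in both genotypes, and Hspa2, an Hsp70 abundant in germ cells, had -0.67 and -0.39. The dimmer probe sets of Hspa4 differed in sign. A dimmer probe set had -0.10 and 0.04, another had 0.30 and -0.51, and the last had -0.53 in wild-type cells as a bound.

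Hspa4l, a relative of Hspa4, depended on the probe set. The one with the highest mean had 9.73 and 10.06 unstimulated and 9.59 and 9.57 with LPS, differences of -0.14 and -0.49. In wild-type cells 3 other probe sets ran from 9.02 to 7.01, from 8.84 to 6.52 and from 8.30 to 6.33, which gave -2.01 and, with the lower value at the floor, -2.04 and -1.50. In knockout cells 2 of them were past 2-fold, with -1.85 and -1.72. Such disagreement, with another probe set past 2-fold but not the brightest, was seen in 5 genes in wild-type and 3 in knockout cells. They were Dnajc3, Dnajc13 and Hspa4l in both genotypes, and Dnajc10 and Hspbap1 in wild-type cells. The same count was not made over all genes, so whether these numbers are unusual is not known. For Dnajc13, an endosomal J protein, the second probe set had -2.22, a bound because its LPS value was under the floor, and -1.75, against -0.32 and -0.18 for the brightest. For Dnajc10, an ER disulfide reductase, it had 1.22 against 0.26.

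Hspbap1 had 8.11 and 7.55 unstimulated and 8.69 and 8.94 with LPS, with differences of 0.59 in wild-type and 1.40 in knockout cells. Its other measured probe set was under the floor in unstimulated cells of both genotypes and had bounds of 1.13 and 1.15. The knockout value of Hspbap1 was 0.40 with a floor at the 75th percentile and 0.76 with poly-A scaling. Both LPS arrays were above both unstimulated arrays on either probe set.

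Both parts of the mitochondrial chaperonin had lower signals after LPS. Hspd1, the ring subunit, had 12.22 and 12.71 unstimulated and 11.10 and 11.74 with LPS. It was 2.17-fold lower in wild-type (-0.87 on the log2 scale with median scaling) and 1.95-fold lower in knockout cells. Its lid Hspe1, transcribed from the promoter region shown above in the opposite direction, had 10.73 and 11.42 unstimulated and 10.33 and 10.54 with LPS, differences of -0.40 and -0.88. The second probe set of Hspe1 had -0.50 and -0.66. Both genes thus had lower signals after LPS in both genotypes, and the 4 arrays fell into the same order, with unstimulated knockout cells highest and LPS wild-type cells lowest. Hspa9, the mitochondrial Hsp70, had differences of -0.42 and 0.07, and Dnaja3, its J protein, 0.08 and 0.38. For both genes the sign depended on the probe set. The 3 measured probe sets of Hspa9 ran from -0.49 to 0.29 in wild-type and from -0.36 to 0.28 in knockout cells. A dimmer probe set of Dnaja3 had 0.55, a bound, and -0.05.

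**Figure D3:**
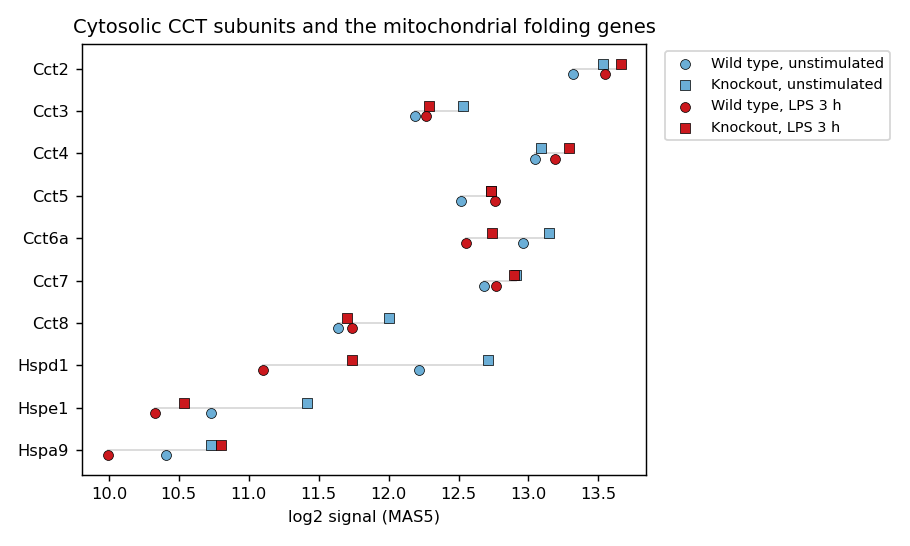
Log2 signal on each of the 4 arrays for the 7 measured Cct genes and the mitochondrial genes Hspd1, Hspe1 and Hspa9, with circles for wild type and squares for knockout, and blue for unstimulated, red for LPS. The Cct genes spread over less than the 2-fold distance, while Hspd1 spans 11.10 to 12.71.

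The cytosolic chaperonin CCT, whose main clients are actin and tubulin, was little different after LPS. None of its 7 measured subunits was called in either genotype, and the differences ran from -0.42 to 0.24 in wild-type and from -0.42 to 0.20 in knockout cells. Cct2 had 13.32 and 13.53 unstimulated and 13.55 and 13.66 with LPS. The values of Cct4 were 13.05 and 13.09, then 13.19 and 13.29, those of Cct7 12.68 and 12.91, then 12.77 and 12.90, and those of Cct5 12.52 and 12.73, then 12.76 and 12.73. All 4 arrays lay close together for these subunits.

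Cct3 had 12.19 and 12.53 unstimulated and 12.27 and 12.29 with LPS, and Cct8 had 11.64 and 12.00, then 11.74 and 11.70. On the brightest probe sets Cct6a was the subunit with lower LPS values in both genotypes, from 12.96 and 13.15 to 12.55 and 12.74, a difference of -0.42 in each, and its second probe set had -0.28 and -0.46. Of the 5 measured probe sets of Cct3, 3 were also lower in both. With quantile normalization 4 of 7 subunits were below 0 in wild-type and 6 of 7 in knockout cells, so the sign of these small differences depends on the probe set and the scaling. Tcp1, the subunit whose symbol lies outside the rule, had 0.35 and 0.20. Among 10 prefoldin and chaperonin partner genes, which deliver clients to CCT and include Tcp1, none was called.

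The second question is how loss of miR-125a bears on these genes. No chaperone gene of 54 was called between genotypes in unstimulated cells, against 1.01% of 9401 genes, and 1 of 53 was called with LPS, against 1.24% of 9262. The gene called with LPS was Dnajc17, a nuclear J protein linked to splicing, with 11.86 in wild-type and 10.79 in knockout cells, 2.11-fold lower in the knockout. The same probe set had 11.41 and 11.27 unstimulated, so LPS differences ran in opposite directions, 0.45 in wild-type and -0.49 in knockout cells. No other probe set of Dnajc17 reached the floor. None of 53 genes had LPS differences that differed at least 2-fold between genotypes, against 2.17% of 9220. The comparisons of the genotypes and of the LPS responses use the same 4 arrays.

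**Figure D4:**
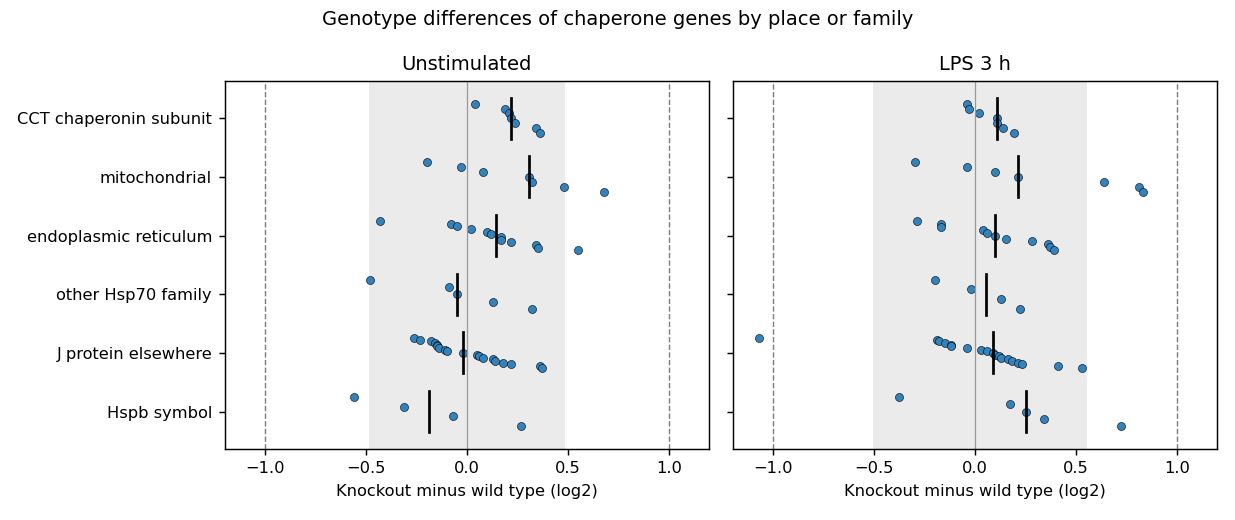
Knockout minus wild-type log2 difference of the chaperone genes, 1 point per gene, in unstimulated cells (left) and with LPS (right), grouped by place or family, with black bars at group medians, grey from the 5th to the 95th percentile of all genes and dashed lines at 2-fold. The Cct subunits all lie above 0 on the left with a median of 0.22, and 1 gene, Dnajc17, passes a dashed line on the right.

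Differences of any size were more often positive than negative. Of 54 chaperone genes 33 (61.1%) were higher in unstimulated knockout cells, against 50.9% of all genes. With LPS 36 of 53 were (67.9%), against 49%. Some signs were fixed by the floor. With LPS those of Hspb1, Hspb6 and Dnajc28 could only be positive, because the wild-type value was under it. Unstimulated, those of Hspa12a and Hspb6 could only be negative, because the knockout value was. The median with LPS was 0.11, or -0.05 with median scaling, so the second count depends on the scaling. In unstimulated cells all 7 Cct subunits were higher in the knockout, by 0.04 to 0.36 on the log2 scale (median 0.22), and so was Tcp1 by 0.10. The neutrophil markers ran the same way in this comparison, 9 of 9 higher by 0.02 to 0.19 (median 0.17), and their part in the Cct values was not tested. The median over all genes was 0.00, and over 2398 genes with a mean log2 signal of at least 11 it was 0.01 with 53% higher. All 7 stayed above 0 under each scaling, and 6 of 7 did in the mean over probe sets. Of the 19 measured Cct probe sets, 16 were higher in the knockout. The exceptions were 1 probe set of Cct2, with -0.30, and 2 of Cct4, with -0.07 and, as a bound, -0.85. With LPS 5 of 7 were higher, by at most 0.19, and 1 of 7 with median scaling. The measured Cct probe sets with LPS split into 9 above and 9 below 0, from -1.05 to 0.41. The lowest was a dimmer probe set of Cct3, with 8.73 in wild-type and 7.68 in knockout cells. Each difference is under 2-fold, and with 1 array per group its error is unknown.

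The genes placed in mitochondria included the widest positive differences, and 5 of 7 were higher in unstimulated knockout cells. The others were Dnaja3 at -0.20 and Dnajc30, a small J protein, at -0.03. Unstimulated, Hspe1 was 1.61-fold and Hspd1 1.40-fold higher in the knockout, log2 differences of 0.68 and 0.48, where the 95th percentile of all genes was 0.48. With LPS, Hspd1 had 0.64 and Hspe1 0.21. Hspa9 had 10.41 in wild-type and 10.73 in knockout cells unstimulated, and 9.99 and 10.80 with LPS, differences of 0.32 and 0.81. Its 3 measured probe sets were all higher in the knockout on both occasions, by 0.16 to 0.32 unstimulated and by 0.15 to 0.81 with LPS. Dnajc11, a protein that helps shape mitochondrial cristae, had differences of 0.31 and 0.83, but its second probe set had -0.56 unstimulated and stayed under the floor with LPS. Erythroid markers, whose list has 5 of 7 genes with a probe set, had summed signals of 2103 in wild-type and 3577 in knockout cells unstimulated and of 1073 and 958 with LPS. Car2, the marker of highest signal, was above the floor on all arrays, with 10.48 and 11.19 unstimulated and 9.90 and 9.71 with LPS. Car1 had 8.81 and 9.86 and Klf1 7.63 and 7.85 unstimulated, and both were under the floor with LPS. Alas2 and Hba-a1 were under it on all arrays. The part of erythroid cells in these values was not tested.

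Of 12 genes placed in the ER, 9 were higher in unstimulated knockout cells (median 0.14), with Hspa5 at 0.55, Dnajc3 at 0.35 and Dnajb11 at 0.34. The genes that were lower were Dnajb9 at -0.08, Dnajb12 at -0.05 and Dnajc18 at -0.43. Hspa5, Dnajc3 and Dnajb11 are the genes with an ER stress response element in the sequences above. The part of that element in these differences was not tested. The list of ER folding enzymes had all 10 measured genes higher and none called (median 0.43), under every alternative with 8 to 10 genes measured. Among them Pdia4, a disulfide isomerase, had 0.87, Pdia6 0.72, Sdf2l1, a partner of Dnajb11, 0.64, and Calr, a lectin chaperone, 0.40. Hsp90b1, the Hsp90 of the ER, had 0.51. In the unfolded protein response list 9 of 10 were higher (median 0.28), and Ern1 was lower at -0.24. With LPS 8 of 10 ER folding genes were higher (median 0.18), and 5 of 10 with median scaling.

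Plasma cells are rich in ER, and 1 of their markers, Jchain, had the same order of arrays as Hspa5. Hspa5 had 14.21 and 14.76 unstimulated and 14.04 and 14.40 with LPS, and Jchain had 14.35 and 14.67, then 13.98 and 14.42, with unstimulated knockout cells highest and LPS wild-type cells lowest for both. Other probe sets of Hspa5 had genotype differences of 0.47 and 0.03 unstimulated and of -0.06 and -0.10 with LPS, so the order with LPS rests on its brightest one. Mzb1, another plasma cell gene, did not have that order, with 10.18 and 10.42, then 10.01 and 9.85, lowest in LPS knockout cells. The summed signal of the B and plasma cell list, most of it from Jchain, was 22514 and 27915 unstimulated and 17611 and 23276 with LPS. Its B cell genes Ms4a1, Cd79a and Pax5 were under the floor on all arrays, and Cd79b had 8.18 and 7.80 unstimulated. The part of plasma cells in the ER values was not tested.

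Genes next to the chaperones were counted from further lists. Their calls stand against 7.29% higher and 9.69% lower over all genes after LPS in wild-type cells, 6.62% and 7.99% in knockout cells, and 1.01% and 1.24% either way between genotypes, unstimulated and with LPS. In the Hsp90 family all 3 measured genes were higher in unstimulated knockout cells (median 0.47), none was called in any of the 4 comparisons, and Hsp90aa1, the inducible cytosolic form, had LPS differences of -0.32 and -0.56. Of 13 measured Hsp90 co-chaperones, Fkbp5, which tunes steroid receptors, was lower after LPS in wild-type cells (-1.39) and Fkbp4 in knockout cells (-1.01), and none was called between genotypes. Among 12 Hsp70 nucleotide exchange factors, Sil1, which acts on Hspa5, was higher after LPS in wild-type cells (1.01), and Bag5 was lower (-1.35). Hsph1, the inducible exchange factor, was higher in unstimulated knockout cells (1.05), and Sil1 was lower in the knockout with LPS (-1.28). Of 6 mitochondrial proteases, Afg3l2 was lower after LPS in wild-type cells (-1.12). Of 4 heat shock factor genes, 3 had a probe set, Hsf2 and Hsf4 stayed under the floor, and Hsbp1, a binding protein of Hsf1, had 0.60 and 0.40 after LPS.

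Of the 4 heat shock genes left out by the rule, 1 had an LPS difference past 2-fold on its brightest probe set. Hspa1b, the inducible Hsp70, had 11.41 and 12.30 unstimulated and 12.73 and 12.00 with LPS, so its LPS difference was 1.32 in wild-type and -0.30 in knockout cells. Hspa1a had 0.79 and 0.28, Hspa8 0.05 and -0.34, and Dnajb1 0.28 and 0.14. Dnajb6, whose promoter is shown above for its heat shock element, had -0.05 and 0.12 on its brightest probe set. Its dimmer probe sets had -0.69 and -0.25, -0.69 and -0.80, and 0.14 and 0.08. For Dnajb1 the probe sets disagreed. The second one was above the floor on all arrays and had LPS differences of -0.97 and -1.22, in the direction of its relative Dnajb4.

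On their brightest probe sets the remaining genes stayed within 2-fold. Of 56 chaperone genes 44 were called in none of the 4 comparisons, for which no count over all genes was made. For the LPS differences alone, 11 of 53 chaperone genes were called in at least 1 genotype, against 1949 of 9220 genes. The differences of the 44 ran from -0.78 to 0.65 after LPS in wild-type cells and from -0.88 to 0.52 in knockout cells. Between genotypes they ran from -0.48 to 0.68 unstimulated and from -0.38 to 0.83 with LPS. Dnaja2, a general J protein, had 13.09 and 13.27 unstimulated and 12.77 and 12.98 with LPS. Dnajc5, a J protein of secretory vesicles, had LPS differences of -0.06 and -0.29, Dnajc7, which links Hsp70 to Hsp90, -0.05 and -0.30, Dnajc8, a splicing-associated J protein, -0.34 and -0.22, and Dnajc9, a histone chaperone, -0.21 and -0.42. Dnajc15, a mitochondrial import factor, had 0.05 and -0.07.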

How the data were processed

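The deposited values are log2 signals of 45101 probe sets on 4 Affymetrix arrays, made by the authors with MAS5 per the submitters' processing notes, with version and target not given in the sources used here. On the linear scale each array has a trimmed mean (2% off each end) of 500.003 or 500.004, so a change shared by most genes would not show, and between 298 and 428 probe sets are listed at 0. The number of arrays sets the precision. Gene names were taken from the supplied platform annotation (34958 with 1 symbol, 932 with several, 9211 unlisted), and 3 probe sets of Dnajc19 were left out for having several. All 56 gene identifiers matched the GRCm38.p6 RefSeq table, which left the symbols unchanged. Differences were computed over all genes with Python 3.11.15 and pandas 2.3.3, after a floor at the 60th percentile, and the calculation was checked on simulated data. A gene counts as measured in a comparison if either array exceeds the floor.

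The members, lists and rules were chosen with earlier results of these data known. Genes called in any comparison, the Cct subunits, Hspd1, Hspe1 and the 5 genes of highest mean were to be named with all arrays. Places in the cell and the minimum of 11 were set after the values were seen, and other genes named are examples chosen then. J proteins not placed in the ER or mitochondria were grouped as a remainder, so the groups by place may be incomplete. LPS was compared with no stimulation within each genotype, knockout with wild type within each condition, and the LPS responses with each other. Alternatives were 3 scalings, 3 floors and 2 choices of probe sets.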

Additional observations from a re-analysis of the deposited data

How the results depend on the processing

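No paired analysis was possible because each group holds 1 array, and no array could be left out. Counts and medians of the chaperone genes were recomputed under 8 alternatives, and 65 of 88 values stayed close to those reported (a count within 1.5 times, a median within 0.10). Scaling on the poly-A spike-in controls moved most: it shifted the median of all genes by -0.50 in wild-type and -0.58 in knockout cells after LPS. There 0 and 0 genes were higher after LPS, 15 and 20 were lower, and the medians were -0.63 and -0.82, while the median between genotypes with LPS was 0.00. With median scaling, which shifted all genes by 0.23, 0.10 and -0.15 in these 3 comparisons, the medians were 0.09, -0.07 and -0.05, and 4 genes were lower in wild-type cells. With the floor at the 75th percentile 1 gene was higher in each genotype, and the knockout median was -0.29. In the mean over probe sets that median was also -0.29, 1 gene was higher in knockout cells and 3 were called between genotypes with LPS. Leaving out probe sets with the suffix _x_at, _s_at or _a_at, which also removed genes such as Hspa5, the wild-type median was -0.25. Genes with a 2-fold difference between LPS responses numbered 0 as reported, 3 when probe sets were averaged, 2 with a 50th percentile floor, and 1 each with median scaling, poly-A scaling and no floor. The cause was not tested. Of 18 single calls, 9 held in every alternative that gave a value, among them both calls of Dnajb4, Dnajb9 and Dnajc12, and 0 reversed. The weakest was Dnajc24 in knockout cells, short of 2-fold in 4 of 7.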
